A study of Mus musculus with 17 samples.

Results

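Chemokines are small secreted proteins that steer the migration of leukocytes, and their receptors are G-protein-coupled receptors on the cells that respond. The array held 49 genes of this family with a probe set of their own, 32 ligands and 17 receptors, out of 12393 genes in all. They were taken by gene symbol (Ccl, Cxcl, Xcl, Cx3cl, Ccr, Cxcr, Xcr and Cx3cr followed by a number), so no measured value entered the rule. The family itself was chosen with earlier results of these data known. For the 14 genes with several probe sets, the probe set brightest on average stood for the gene, and 4 further probe sets that name a Ccl19, Ccl21 or Ccl27 gene together with other genes were not used. A dimmer probe set followed the one used poorly over all arrays for Cxcl11 (correlation r = 0.21), Ccl28 (−0.39), Cx3cl1 (−0.05) and Ccr9 (−0.05). A further one had r = 0.71 for Cx3cl1 and 0.52 for Ccr9, and the rest had 0.78 or more.

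The family is named after the spacing of its first cysteines (CC, CXC, C and CX3C). Ligands such as Cxcl1, Cxcl2 and Cxcl5 attract neutrophils through Cxcr2. Ccl2, Ccl7 and Ccl12 recruit monocytes through Ccr2, and Cxcl9, Cxcl10 and Cxcl11 are induced by interferon and attract activated T and NK cells through Cxcr3. Cxcl12, Cxcl13 and Cxcl14 are made constitutively by stromal or epithelial cells, and in mammary tumours both the tumour cells and the cells around them can be sources. Many of the inflammatory ligands are transcribed under NF-kB.

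Tumour RNA came from mammary tumours of the FVB strain, with 1 Affymetrix array per tumour and 17 arrays in all. Every tumour carried Myc T58A, a mutant of the Myc transcription factor with altered phosphorylation, driven by the MMTV promoter, which is active mainly in mammary epithelium, and all were labelled low expressing. The histology label gave 9 Squamous, 6 EMT (epithelial to mesenchymal transition), 1 Papillary and 1 Microacinar tumour, with no treatment and no age stated, and normal mammary tissue was not analysed here. Numbers after a label only tell its tumours apart. Separate mice are not stated for these tumours, and Squamous 7 shares a title number with Squamous 8, as Squamous 5 does with the Microacinar tumour. Any p-value here thus reflects the spread between these tumours, which may be partly technical.

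All values are log2 values per probe set as deposited, and the number of arrays limits their precision. Titles came in 2 formats, 14 numbered and 3 with TM (EMT 5, EMT 6 and Squamous 9). The TM arrays had a wider spread of values over probe sets (SD 2.46 to 2.51 against 2.25 to 2.29). Ccl17, Ccr10, Ccr1l1, Ccr3 and Ccr4 had one identical value on all 3 TM arrays, as did 2989 probe sets in all. The mean of 10 luminal epithelium markers lay between 10.84 and 12.71 in Squamous tumours. It was 10.585 in EMT 2, 9.06 in EMT 4, 7.43 in EMT 5 and 7.82 in EMT 6, all below that range. EMT 4, EMT 5 and EMT 6 thus had low levels of the epithelial genes of the labelled tissue. In whole tumours, fewer cells of a type and less RNA per cell cannot be told apart.

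Promoters are shown for 2 pairs of neighbouring ligands whose levels moved together over the 14 numbered arrays, Cxcl1 with Cxcl2 (r = 0.76) and Cxcl9 with Cxcl10 (r = 0.92). They show which of the 4 carry the motif of NF-kB. The 250 bases before the transcription start are given 5′ to 3′ from RefSeq (GRCm38.p6), with matches to the kappaB consensus, the sequence NF-kB binds, in capitals on either strand. Cxcl1 is at chr5:90890995-90891244 and Cxcl2 at chr5:90903649-90903898, both on the plus strand. Cxcl9 is at chr5:92328080-92328329 and Cxcl10 at chr5:92348890-92349139, both on the minus strand.
Cxcl1: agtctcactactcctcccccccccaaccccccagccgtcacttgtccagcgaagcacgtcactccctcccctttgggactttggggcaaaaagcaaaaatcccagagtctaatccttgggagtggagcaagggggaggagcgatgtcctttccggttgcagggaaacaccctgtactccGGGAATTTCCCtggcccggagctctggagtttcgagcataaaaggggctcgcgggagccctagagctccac
Cxcl2: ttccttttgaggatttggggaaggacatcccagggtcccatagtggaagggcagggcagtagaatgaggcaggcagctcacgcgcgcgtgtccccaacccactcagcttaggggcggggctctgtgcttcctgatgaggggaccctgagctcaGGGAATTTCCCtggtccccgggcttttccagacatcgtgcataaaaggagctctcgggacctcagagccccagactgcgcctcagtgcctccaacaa
Cxcl9: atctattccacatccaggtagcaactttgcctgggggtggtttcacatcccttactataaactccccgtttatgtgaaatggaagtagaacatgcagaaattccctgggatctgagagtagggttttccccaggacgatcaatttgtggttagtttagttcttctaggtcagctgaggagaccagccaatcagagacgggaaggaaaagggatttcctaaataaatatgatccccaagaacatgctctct
Cxcl10: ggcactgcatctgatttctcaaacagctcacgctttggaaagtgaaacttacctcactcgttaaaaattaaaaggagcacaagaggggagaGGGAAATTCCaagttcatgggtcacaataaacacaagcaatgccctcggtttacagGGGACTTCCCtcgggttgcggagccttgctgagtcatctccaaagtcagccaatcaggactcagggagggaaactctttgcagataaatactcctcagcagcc

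The capitals read GGGAATTTCCC in both Cxcl1 and Cxcl2, where the kappaB consensus matched at 2 overlapping positions. Cxcl10 held 2 separate matches, bases 92 to 101 and 148 to 157 of the printed run. It also held the interferon response element core at bases 38 to 47, and Cxcl9 matched neither motif in this window. RefSeq promoter windows running from 250 bases before to 50 bases after the start were found for 36 of the 49 genes, in 40 windows. The kappaB consensus was in 8 of the 40 windows, 20%, against 4.51% of all 32851 windows. The genes were Cxcl1, Cxcl2, Cxcl10, Ccl9, Ccl20, Ccl27a, Ccr3 and Ccr6. The AP-1 motif TGANTCA was in 20% of the family's windows (7.81% of all) and the TATA box TATAAA in 27.5% (13.6% of all). The GAS element TTCNNNGAA was in 10% (8.30% of all) and the interferon response element core in 5% (3.44% of all). All motifs were searched on both strands, and a match describes the letters only.

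The family varied widely from tumour to tumour. The 1240 genes with the largest SD over the 17 tumours, 10% of all genes, included 18 of the 49 members, 15 of them ligands. The median SD was 0.88 for ligands and 0.38 for receptors, and 0.32 over all 12393 genes. Cxcl9, Cxcl5 and Cxcl2 had the largest SDs of the family, 1.93, 1.92 and 1.90. Among the 14 numbered arrays their SDs were 2.05, 2.03 and 1.87. Other members of the top 10% owed much of their spread to the TM arrays. The SD was 1.35 over all tumours and 0.54 among numbered arrays for Ccl2, and 1.31 and 0.57 for Ccl7. It was 1.17 and 0.53 for Ccr2, and 1.62 and 0.99 for Ccl11. At the other end 9 members had a mean below 5.24, the lowest lower quartile of any array, and are described as low signal: the receptors Ccr1l1, Ccr3, Ccr4, Ccr8, Ccr9, Cxcr5 and Xcr1 and the ligands Ccl1 and Cxcl15. Ccr3 and Ccr8 were nearly flat, spanning 0.26 and 0.30 over all tumours.

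**Figure D1:**
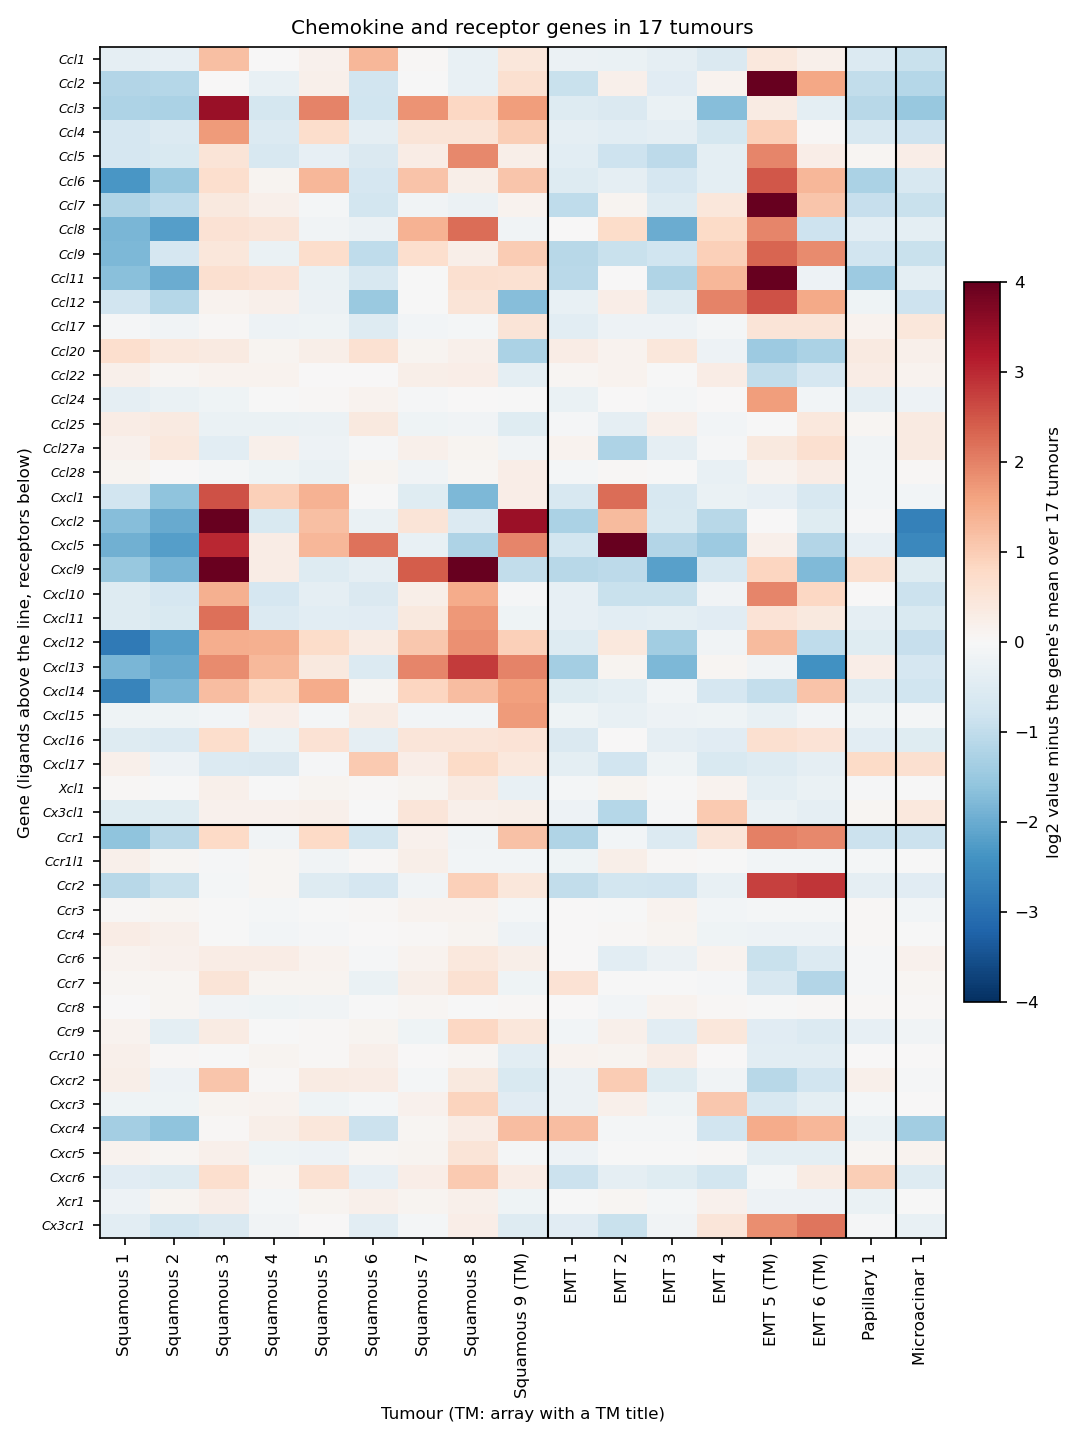
Each row is 1 of the 49 genes and each column 1 of the 17 tumours, and the colour is the log2 value minus that gene's mean over all tumours (colours stop at ±4). EMT 5 stands high in Ccl2, Ccl7 and Ccl11, Squamous 3 in Cxcl1, Cxcl2, Cxcl9 and Ccl3, and Squamous 1 and Squamous 2 are low in most inflammatory and stromal ligands.

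Single tumours were the highest or lowest of all for several members. Squamous 8 was above all 16 others in 11 of the 49 members, among them Cxcl9, Cxcl12, Cxcl13 and Cxcr6, while it was the highest tumour in 2.82% of all genes. The 11 also included the low-signal Ccr3, Ccr9 and Cxcr5, and Xcl1, which spanned only 0.75 over all tumours. Squamous 3 was highest in 8 members, among them Cxcl1, Cxcl2, Ccl3, Ccl4, Cxcl11 and the low-signal Xcr1, against 1.74% of all genes. EMT 5 was highest in 11 members, among them Ccl2, Ccl7, Ccl11, Ccl12 and Ccr1, against 15% of all genes. EMT 6, like EMT 5 a TM array, was highest in 5 members, a smaller share than its 12.2% of all genes. Squamous 1 was the lowest tumour in 8 members, among them Ccl2, Ccl6, Cxcl12 and Cxcl14, against 6.21% of all genes. The other 13 tumours were each highest in 0 to 3 members, against 0.621% to 11.4% of all genes, and the other 16 each lowest in 0 to 7, against 1.53% to 12% of all genes. Among the 14 numbered arrays Squamous 8 was highest in 14 members (5.84% of all genes) and Squamous 3 in 9 (3.29% of all genes).

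The neutrophil-attracting CXC ligands had their highest values in single tumours of both histologies. Cxcl2 ran from 5.40 in Squamous 2 to 12.36 in Squamous 3 among Squamous tumours, with a median of 7.17. In EMT tumours it ran from 6.15 in EMT 1 to 8.68 in EMT 2, with a median of 6.88, and it was 7.38 in the Papillary and 4.73 in the Microacinar tumour. Squamous 3 and Squamous 9 (10.84) lay far above the rest, all 6 EMT tumours lay inside the Squamous range, and the Microacinar tumour was the lowest of all. For EMT minus Squamous, limma with title format as a term estimated −1.23 on the log2 scale for Cxcl2 (SE 0.97, adjusted p = 0.575), −0.63 among numbered arrays and −0.72 without Squamous 3.

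Cxcl5, made mainly by epithelial cells, ran from 5.73 in Squamous 2 to 10.93 in Squamous 3, with a median of 8.21. In EMT tumours it ran from 6.47 in EMT 4 to 12.04 in EMT 2, with a median of 6.96. EMT 2 was thus the highest tumour of all for Cxcl5, with the next EMT tumour at 8.11, and the Microacinar tumour at 5.35 was the lowest. By limma the difference of EMT minus Squamous was −0.45 (SE 1.06, adjusted p = 0.876), −1.54 without EMT 2 and 0.04 among numbered arrays.

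Cxcl1 ran from 5.91 in Squamous 8 to 10.24 in Squamous 3, with a median of 7.68. The EMT range was 7.05 (EMT 6) to 9.92 (EMT 2), with a median of 7.21. Cxcl1 was 7.57 in both the Papillary and the Microacinar tumour, and the groups overlapped throughout. Cxcl1 differed by −0.04 on the log2 scale (SE 0.70, adjusted p = 0.986 by limma), by −0.59 without EMT 2 and by 0.24 without Squamous 3. Cxcr2, the neutrophil receptor of these ligands, had its highest values in Squamous 3 at 6.50 and EMT 2 at 6.38, the same 2 tumours that led Cxcl1 and Cxcl5. Its lowest values were 4.28 in EMT 5, 4.62 in EMT 6 and 4.78 in Squamous 9, the 3 TM arrays. The mean of 11 measured neutrophil markers of 12 listed ran from 7.73 to 9.48 in Squamous and from 6.99 to 8.43 in EMT tumours. Squamous 9 had 9.48, Squamous 3 9.18, Squamous 8 9.03, the Papillary tumour 8.82 and EMT 2 8.43. Of these markers 1 was below the low-signal bound, and their part in the ligand levels was not tested. Cxcl15, another CXC ligand, was low signal and between 4.14 and 4.78 in every tumour but Squamous 9, where it was 6.15. It had an unadjusted p of 0.0227 at −0.53 (SE 0.21, adjusted p = 0.281 by limma), and −0.19 among numbered arrays or without Squamous 9. Squamous 9 is the only Squamous TM array, so without it EMT 5 and EMT 6 also drop out of the difference.

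Ccl3 and Ccl4, CC ligands of activated myeloid and T cells, followed each other closely over the 14 numbered arrays (r = 0.98, a description over arrays). Ccl3 ran from 5.63 in Squamous 2 to 10.35 in Squamous 3, with a median of 7.72, and from 5.18 in EMT 4 to 7.21 in EMT 5, with a median of 6.44. It was 5.79 in the Papillary and 5.37 in the Microacinar tumour. All EMT tumours were below the Squamous median and EMT 4 was below every Squamous tumour, and the difference was −1.36 (SE 0.72, adjusted p = 0.404 by limma). Ccl4 gave −0.60 (SE 0.35, adjusted p = 0.442 by limma), with Squamous 3 highest at 9.04. Ccl20, a ligand made by epithelium for Ccr6, stayed between 6.55 and 7.42 on numbered arrays and was 5.48, 5.29 and 5.48 on the TM arrays Squamous 9, EMT 5 and EMT 6.

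**Figure D2:**
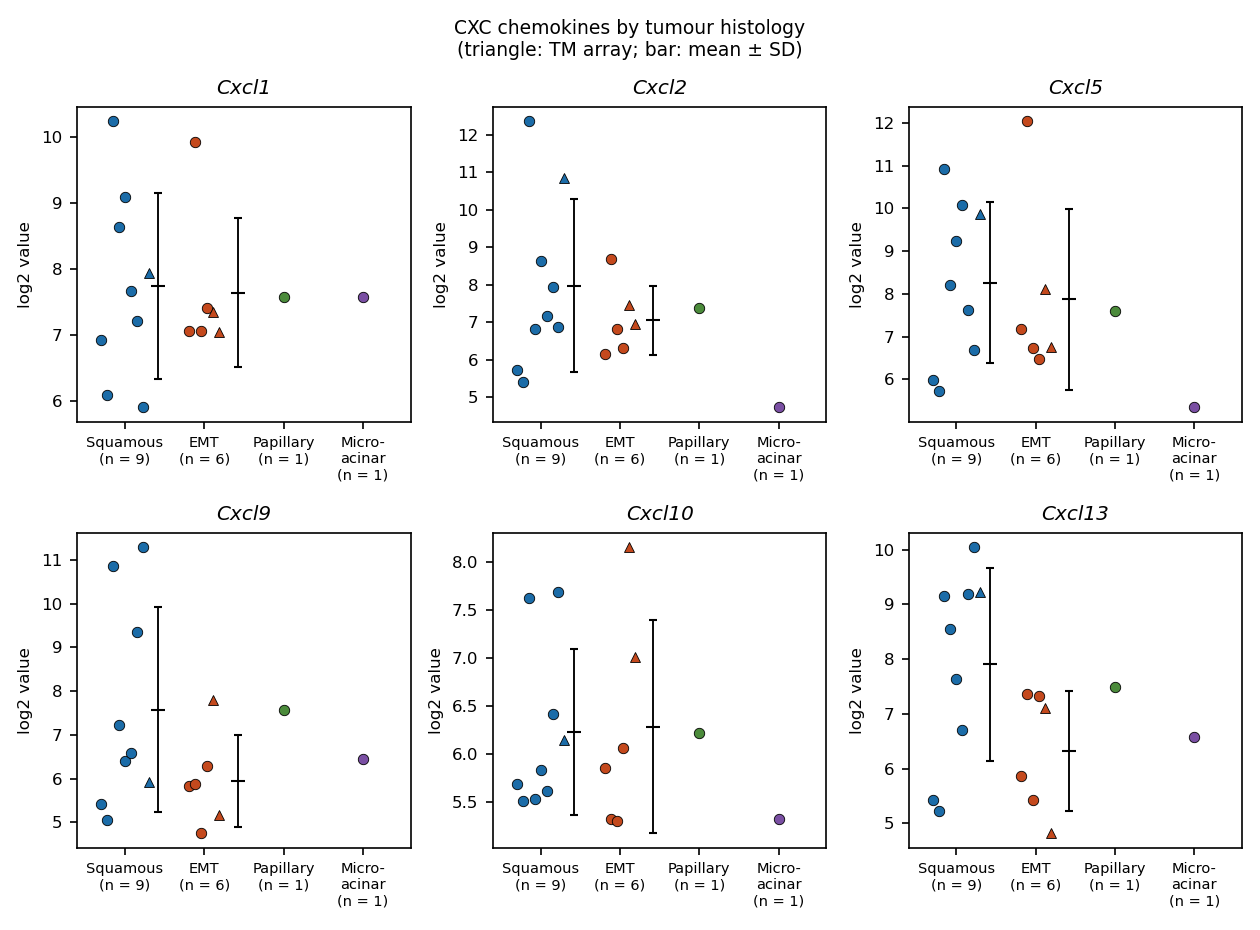
Log2 values of 6 CXC ligands by histology, 1 point per tumour (triangles, TM arrays), with the mean ± SD of Squamous and EMT tumours as bars. Cxcl2 reaches 12.36 in Squamous 3, Cxcl5 12.04 in EMT 2 and Cxcl9 11.28 in Squamous 8, while most tumours lie several log2 units lower and the groups overlap in each panel.

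Among the interferon-induced ligands, Squamous 3 and Squamous 8 were among the 3 highest tumours for each of Cxcl9, Cxcl10 and Cxcl11. Cxcl9 was 11.28 in Squamous 8, 10.87 in Squamous 3 and 9.34 in Squamous 7, against a Squamous median of 6.57 and a minimum of 5.06 in Squamous 2. In EMT tumours it ran from 4.75 in EMT 3 to 7.79 in EMT 5, with a median of 5.85, and it was 7.58 in the Papillary and 6.44 in the Microacinar tumour. EMT tumours thus stayed below the 3 highest Squamous tumours but overlapped the other 6. Cxcl9 had a difference of −1.56 (SE 1.04, adjusted p = 0.509 by limma), and −2.09 among numbered arrays.

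Cxcl10 ran from 5.52 to 7.69 in Squamous tumours, with a median of 5.84, and from 5.30 to 8.16 in EMT tumours, with a median of 5.96. Its highest tumour was EMT 5, followed by Squamous 8 and by Squamous 3 at 7.63. Cxcl11 was 7.58 in Squamous 3, 7.13 in Squamous 8 and at most 5.91 elsewhere. EMT minus Squamous was −0.20 for Cxcl10 (SE 0.45, adjusted p = 0.875) and −0.38 for Cxcl11 (SE 0.47, adjusted p = 0.738), both by limma. Cxcl10 was −0.02 without Squamous 8 and −0.61 among numbered arrays or without Squamous 9, where EMT 5 and EMT 6 drop out too. Ccl5, a ligand of T and NK cells and macrophages, was 8.50 in EMT 5 and 8.45 in Squamous 8, and the medians were 6.19 in Squamous and 6.12 in EMT tumours. Its difference was −0.35 (SE 0.44, adjusted p = 0.751 by limma), −0.12 without Squamous 8 and −0.66 among numbered arrays or without Squamous 9.

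The lymphocyte receptors Cxcr6 and Cxcr3 were both high in Squamous 8. Cxcr6, a receptor of T and NK cells, was 6.43 in Squamous 8, 6.35 in the Papillary tumour and 6.05 in Squamous 3. Its values ran from 4.87 to 6.43 in Squamous tumours, median 5.65, and from 4.51 to 5.69 in EMT tumours, median 4.95. Cxcr6 differed by −0.66 on the log2 scale (SE 0.25, unadjusted p = 0.0188, adjusted p = 0.268 by limma), and −0.78 among numbered arrays. Cxcr3 was 7.57 in EMT 4 and 7.38 in Squamous 8, and at most 6.70 elsewhere. The mean of 11 measured T and NK cell markers of 14 listed ran from 5.22 to 6.74 in Squamous and from 5.19 to 6.26 in EMT tumours, highest in Squamous 8 and next in EMT 5. Of these markers 4 were below the low-signal bound, and their part in the levels above was not tested.

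The constitutive ligands Cxcl12, Cxcl13 and Cxcl14 were low in Squamous 1 and Squamous 2. Cxcl13, the B cell attractant read by Cxcr5, was 10.04 in Squamous 8 and above 9 in Squamous 3, Squamous 7 and Squamous 9 as well, with a Squamous median of 8.55 and minimum of 5.23. EMT tumours ran from 4.82 in EMT 6 to 7.37 in EMT 2, with a median of 6.49, and the Papillary and Microacinar tumours were at 7.50 and 6.58. All EMT tumours were below the Squamous median, and Squamous 1 and Squamous 2 were among the lowest. Squamous tumours averaged 7.91 ± 1.76 (SD, n = 9) and EMT tumours 6.32 ± 1.09 (SD, n = 6). The difference of −1.65 (SE 0.82, adjusted p = 0.376 by limma) was the largest in size of the family. The mean of 8 measured B and plasma cell markers of 10 listed ran from 5.74 to 7.97 in Squamous and from 5.28 to 5.81 in EMT tumours. Its highest tumour was also Squamous 8. Of these markers 3 were below the low-signal bound, and their part in the Cxcl13 levels was not tested. Cxcr5 itself was low signal, with −0.18 (SE 0.10, adjusted p = 0.439 by limma).

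Cxcl12, which holds Cxcr4-bearing cells in stroma, was 6.16 in Squamous 1 and 6.79 in Squamous 2, against 9.31 to 10.79 in the other 7 Squamous tumours. In EMT tumours it ran from 7.58 in EMT 3 to 10.23 in EMT 5, with a median of 8.64. Cxcl14, a ligand of epithelium and fibroblasts, was likewise 7.73 and 8.53 in Squamous 1 and Squamous 2 against 10.43 to 12.00 in the other Squamous tumours, and 9.41 to 11.51 in EMT tumours. The mean of 10 fibroblast markers was 8.78 in Squamous 1 and 9.09 in Squamous 2, with 11.92 the Squamous maximum and 10.20 to 12.64 in EMT tumours. By the model, EMT minus Squamous was −0.68 for Cxcl12 (SE 0.75, adjusted p = 0.710) and −0.75 for Cxcl14 (SE 0.66, adjusted p = 0.620), both by limma. Cxcl12 was −1.03 without Squamous 1, −0.44 without EMT 3 and −1.38 with array weights. The part of fibroblast content in these levels was not tested.

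Cxcr4, the receptor of Cxcl12, ran from 6.95 in Squamous 2 to 9.78 in Squamous 9, median 8.65, and from 7.80 in EMT 4 to 10.05 in EMT 5, median 9.14. EMT 1 at 9.80 and EMT 6 at 9.87 were also above every Squamous tumour, so 3 of 6 EMT tumours were. Cxcr4 differed by 0.37 on the log2 scale (SE 0.39, adjusted p = 0.692 by limma), by 0.06 without EMT 1 and by 0.57 without EMT 4. Ccr7, the lymph node homing receptor, was 5.97 to 6.85 in Squamous and 5.08 to 6.81 in EMT tumours, with −0.20 (SE 0.16, adjusted p = 0.603 by limma). The Ccr7 estimate was −0.07 among numbered arrays or without Squamous 9, and −0.33 without EMT 1. Ccr6, the receptor of Ccl20, ran from 5.67 to 6.12 in Squamous and from 4.81 to 5.84 in EMT tumours, and 4 of 6 EMT tumours were below every Squamous tumour. Its log2 fold change of −0.45 (SE 0.12, unadjusted p = 0.00228, adjusted p = 0.188 by limma) had the lowest p of the family. It was −0.32 among numbered arrays.

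Ccl2, Ccl7 and Ccl11, neighbouring CC ligands, were each more than 2 log2 units higher in EMT 5 than in any other tumour. Ccl2 was 11.85 in EMT 5 and 8.99 in EMT 6, above the Squamous maximum of 8.07, and 6.53 to 7.66 in the other 4 EMT tumours. The Squamous tumours ran from 6.28 in Squamous 1 with a median of 7.15, and the Papillary and Microacinar tumours were at 6.46 and 6.30. Ccl7 reached 11.06 in EMT 5, with EMT 6 at 7.73 and EMT 4 at 7.08, against a Squamous range of 5.42 to 7.02. Ccl11, the eotaxin that attracts eosinophils, was 12.90 in EMT 5 and 9.09 in EMT 4, against 5.80 to 8.41 in Squamous tumours. On the log2 scale EMT minus Squamous was 0.62 for Ccl2 (SE 0.46, adjusted p = 0.550), 0.61 for Ccl7 (SE 0.53, adjusted p = 0.617) and 0.46 for Ccl11 (SE 0.78, adjusted p = 0.820), all by limma. Without EMT 5 the estimate for Ccl2 was 0.30 and for Ccl11 −0.04, and among numbered arrays 0.18 and 0.11. Ccl11 was 0.12 without EMT 4 and 0.80 without EMT 6. EMT 5 and EMT 6 are both TM arrays, so for EMT tumours the title format and these 2 tumours cannot be told apart.

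Ccl12, a further Ccr2 ligand, had the largest positive fold change of the family in EMT tumours and did not pass the test. EMT 5 had 10.76, EMT 4 10.18 and EMT 6 9.71, all above the Squamous maximum of 8.71, and 7.69 to 8.48 in the other 3 EMT tumours. The Squamous values ran from 6.49 in Squamous 9 with a median of 7.96. EMT tumours averaged 9.12 ± 1.27 (SD, n = 6) and Squamous tumours 7.70 ± 0.80 (SD, n = 9). Ccl12 differed by 1.32 (SE 0.53, unadjusted p = 0.0266, adjusted p = 0.298 by limma), and 0.71 among numbered arrays or without Squamous 9. Ccl8, Ccl6 and Ccl9, further CC ligands of myeloid cells, had log2 fold changes of 0.02, −0.14 and 0.02. Ccl8 was highest in Squamous 8 at 12.60 and next in EMT 5 at 12.32. Ccl6 and Ccl9 were highest in EMT 5 at 13.15 and 12.66 and lowest in Squamous 1 at 8.31 and 8.56. Ccl24, an eosinophil attractant, was 8.43 in EMT 5 and between 6.39 and 6.91 in the other 16 tumours.

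Receptors of monocytes and macrophages were highest in EMT 5 and EMT 6. Ccr2 was 10.21 in EMT 6 and 10.09 in EMT 5, against 6.24 to 8.30 in Squamous tumours and 6.36 to 7.07 in the other EMT tumours. Cx3cr1, the fractalkine receptor of monocytes and resident macrophages, reached 11.06 in EMT 6, with EMT 5 at 10.80 and EMT 4 at 9.41, above the Squamous maximum of 9.19. Ccr1 was 10.65 in EMT 5 and 10.55 in EMT 6, and next 9.81 in Squamous 9. The mean of all 12 macrophage markers was 12.07 in EMT 5 and 11.62 in EMT 6, above the Squamous range of 8.64 to 10.73, and 9.38 to 10.61 in the other EMT tumours. None of the 12 was below the low-signal bound, and their part in these levels was not tested. EMT minus Squamous was 0.15 for Ccr2 (SE 0.40, adjusted p = 0.891) and 0.51 for Cx3cr1 (SE 0.34, adjusted p = 0.505), both by limma, and −0.40 and 0.01 among numbered arrays. Cx3cl1, the membrane-bound ligand fractalkine, ran from 6.99 to 7.97 in Squamous tumours and from 6.33 in EMT 2 to 8.53 in EMT 4, with −0.21 (SE 0.28, adjusted p = 0.765 by limma), 0.05 without EMT 2 and −0.51 without EMT 4.

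**Figure D3:**
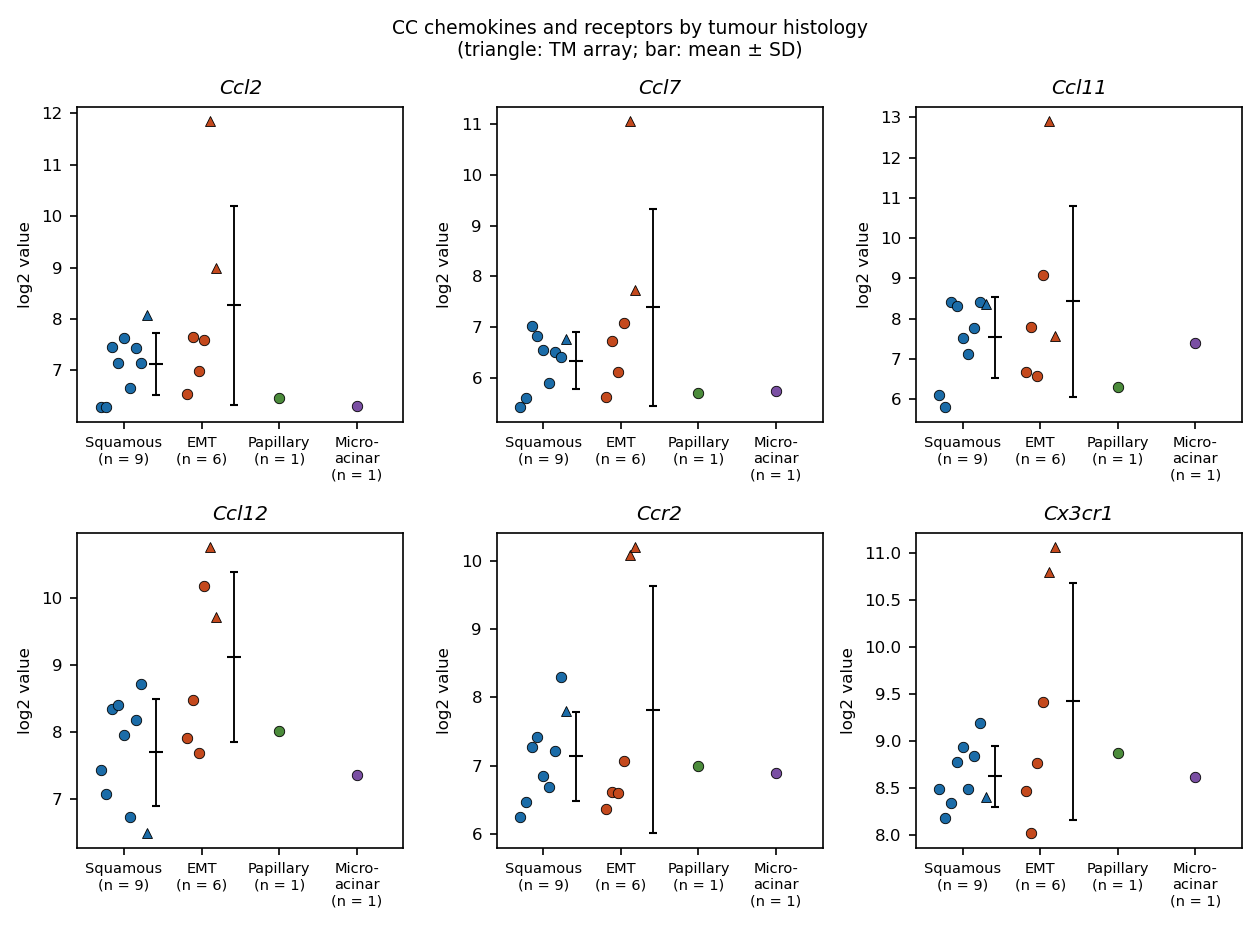
Log2 values of 4 CC ligands and 2 receptors by histology, 1 point per tumour (triangles, TM arrays), with the mean ± SD of Squamous and EMT tumours as bars. EMT 5 stands at 11.85 for Ccl2, 11.06 for Ccl7 and 12.90 for Ccl11, and EMT 5 and EMT 6 stand at 10.09 and 10.21 for Ccr2.

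Cxcl16, which exists as a membrane-bound and a soluble ligand of Cxcr6, ran from 8.69 in Squamous 2 to 9.93 in Squamous 3, median 9.71, and from 8.64 in EMT 1 to 9.88 in EMT 5, median 9.05. The groups overlapped almost fully, with −0.33 (SE 0.23, adjusted p = 0.525 by limma), −0.16 without the title format term and −0.52 with array weights. The other members are summarised by their range. Among ligands the full range over 17 tumours was 2.21 for Ccl1, 1.87 for Ccl27a, a skin ligand, 1.28 for Ccl22, 1.03 for Ccl17, 0.90 for Ccl25, 0.75 for Xcl1 and 0.59 for Ccl28. Among receptors it was 1.37 for Ccr9, 0.91 for Cxcr5, 0.73 for Ccr10, 0.54 for Xcr1, 0.49 for Ccr4 and 0.43 for Ccr1l1.

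Over the whole comparison of EMT with Squamous tumours, limma passed 0 of the 49 members, and it passed 0% of all 12393 genes at an adjusted p of 0.05. At an unadjusted p under 0.05 there were 5 members, against 14.3% of all genes. Ccl12 was the 1 member higher in EMT (8.08% of all genes) and Ccr6, Cxcr6, Cxcl17 and Cxcl15 the 4 lower (6.27% of all genes), and together the 5 are a smaller share of the family than 14.3%. Cxcl17, a ligand of mucosal epithelium, had a mean of 6.71 ± 0.55 in the 9 Squamous tumours and of 6.10 ± 0.21 in the 6 EMT tumours (SD). It differed by −0.65 (SE 0.24, adjusted p = 0.269 by limma). In 0 members did the 2 groups not overlap (0.153% of all genes had every EMT value above, and 0.0968% every EMT value below). Estimates were below 0 for 34 of 49 members, against 48.2% of all genes, with a median of −0.14 for the family and 0.01 for all genes. A log2 fold change past 1 in size was seen in 5 members, Cxcl13, Cxcl9, Ccl3, Ccl12 and Cxcl2, against 4.22% of all genes. Among numbered arrays 2 members, Ccr6 and Cxcr6, had an unadjusted p under 0.05, against 9.38% of all genes.

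**Figure D4:**
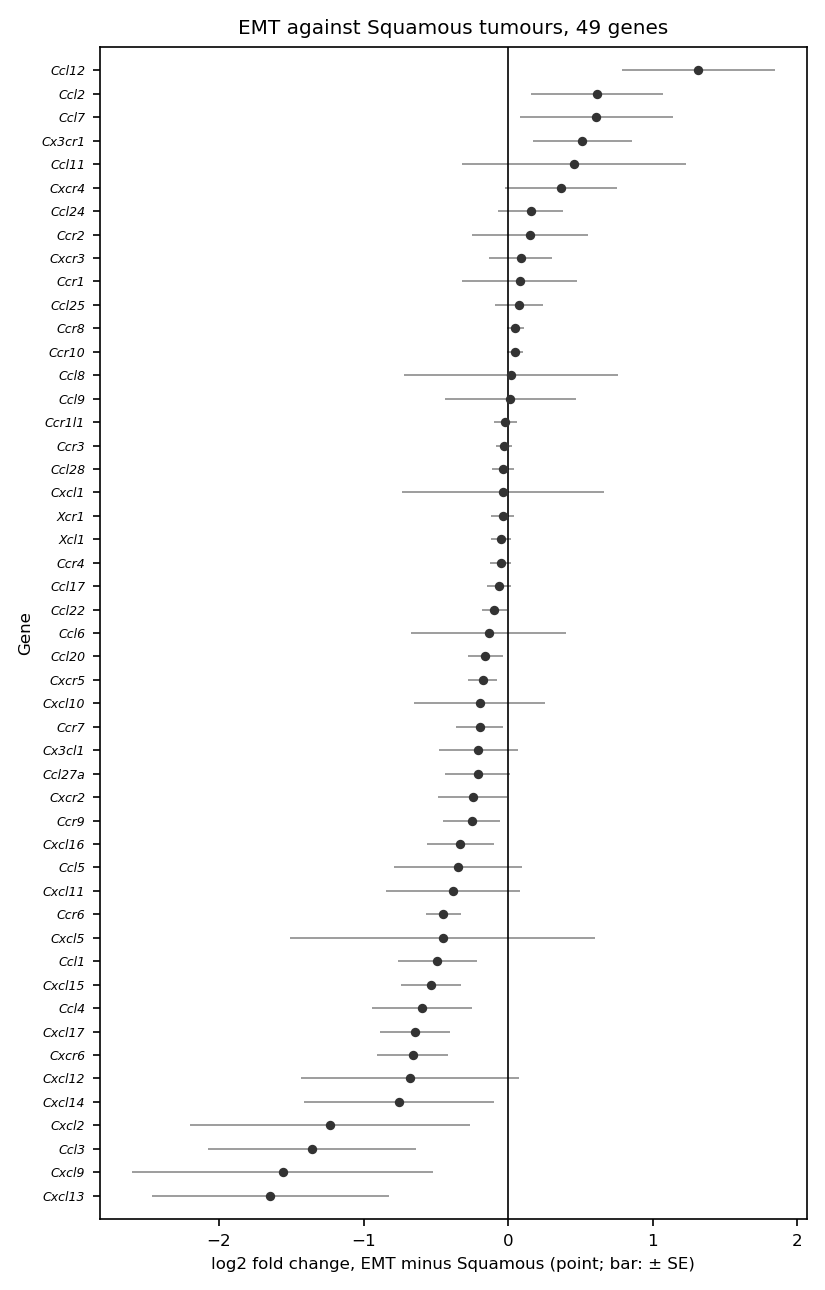
Log2 fold change of EMT minus Squamous tumours for each of the 49 genes (points) with its standard error (bars), from the limma model with title format as a term. Estimates run from −1.65 for Cxcl13 to 1.32 for Ccl12, and no gene passes an adjusted p of 0.05.

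The Papillary and Microacinar tumours have no replicate and were set against the range of the others. The Microacinar tumour was below all 9 Squamous tumours in 8 of 49 members (10% of all genes): Cxcl2, Cxcl5, Cxcl10, Cxcl11, Ccl1, Ccl3, Ccl4 and Ccr3. It was above all of them in 0 (11.1% of all genes). Against all 15 Squamous and EMT tumours it was lowest in 5 members (5.33% of all genes) and highest in 0 (6.67% of all genes). Cxcl2 lay 0.67 below the lowest of the 15, Cxcl5 0.38 and Ccl1, a T cell ligand of low signal, 0.31. The mean of 11 neutrophil markers was 7.10 in the Microacinar tumour, below the Squamous minimum of 7.73, and 8.82 in the Papillary tumour. The mean of 8 skeletal muscle markers was 10.38 and 10.01 in these 2 tumours, above the Squamous maximum of 9.40 (median 5.26). In EMT tumours it ran from 4.82 in EMT 5 to 11.19 in EMT 4, the highest tumour of all. The part of these cell types in the values above and below was not tested. The tumour with the same title number as the Microacinar tumour, Squamous 5, had Cxcl2 at 8.63. The Papillary tumour was above all 9 Squamous tumours in Ccl22 (8.26% of all genes) and below them in Ccl1, Ccl24, Ccr6 and Xcr1 (8.26% of all genes). Ccl24 and Xcr1, a dendritic cell receptor of low signal, were also below all 15, by 0.02 and 0.06 (5.04% of all genes). In 0 members was it above all 15 (4.36% of all genes).

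Ligands were set against their receptors over the 17 tumours for 12 measured pairs, by Pearson and Spearman correlation with permutation p-values adjusted over the pairs. Cxcl16, a ligand of macrophages and epithelium, and Cxcr6 had r = 0.66 (permutation p = 0.00539, adjusted p = 0.0216) and rho = 0.73 (permutation p = 0.00137, adjusted p = 0.00822). Within numbered arrays r was 0.71, and without Squamous 3 and EMT 5, farthest from the Cxcl16 median, it was 0.67, so this relation did not rest on them. The mean of Cxcr6 was 5.37, just above the low-signal bound of 5.24, and its EMT median of 4.95 was below that bound. Ccl2 and Ccr2 had r = 0.83 (adjusted permutation p = 0.00186) and rho = 0.68 (adjusted permutation p = 0.0127). Among numbered arrays r was 0.42 (adjusted permutation p = 0.160). Without EMT 5 and EMT 6 it was 0.53 (permutation p = 0.0406, adjusted p = 0.162). The relation was thus weaker without those 2 tumours and did not pass after adjustment, though r stayed positive.

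Xcl1 with Xcr1, both nearly flat and Xcr1 of low signal, had r = 0.76 (adjusted permutation p = 0.00186) and rho = 0.76 (adjusted permutation p = 0.00822). It was 0.64 among numbered arrays (adjusted permutation p = 0.0294) and 0.72 without EMT 5 and Squamous 8 (adjusted permutation p = 0.0226), and −0.10 after quantile normalization.

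The pairs of Cxcr2, Cx3cr1, Cxcr4, Ccr4 and Ccr6 changed with the tumours included. Cxcl1 with Cxcr2 had r = 0.58 (adjusted permutation p = 0.0399) and rho = 0.41 (adjusted permutation p = 0.173), and r = 0.10 without Squamous 3 and EMT 2. Cxcl5 with Cxcr2 had r = 0.50 over all tumours, 0.79 among numbered arrays and 0.02 without the same 2 tumours. Cx3cl1 with Cx3cr1 had r = 0.08 over all tumours and 0.82 among numbered arrays (adjusted permutation p = 0.00672). It was −0.28 over all tumours without EMT 2 and EMT 4, the lowest and highest for Cx3cl1. Cxcl12 with Cxcr4 had r = 0.53 (adjusted permutation p = 0.0501), 0.61 among numbered arrays and 0.23 without Squamous 1 and Squamous 2. Ccl22 with Ccr4 had r = 0.57 over all tumours (adjusted permutation p = 0.0399) and −0.07 among numbered arrays. Ccl20 with Ccr6 had r = 0.53 and −0.14. Ccr4 was of low signal with one identical value on the 3 TM arrays, where Ccl22 and Ccl20 also had their lowest values. The permutations did not hold title format fixed. Cxcl13 with Cxcr5, Cxcl9 with Cxcr3 and Cxcl10 with Cxcr3 had r of 0.43, 0.43 and 0.01 and did not pass.

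**Figure D5:**
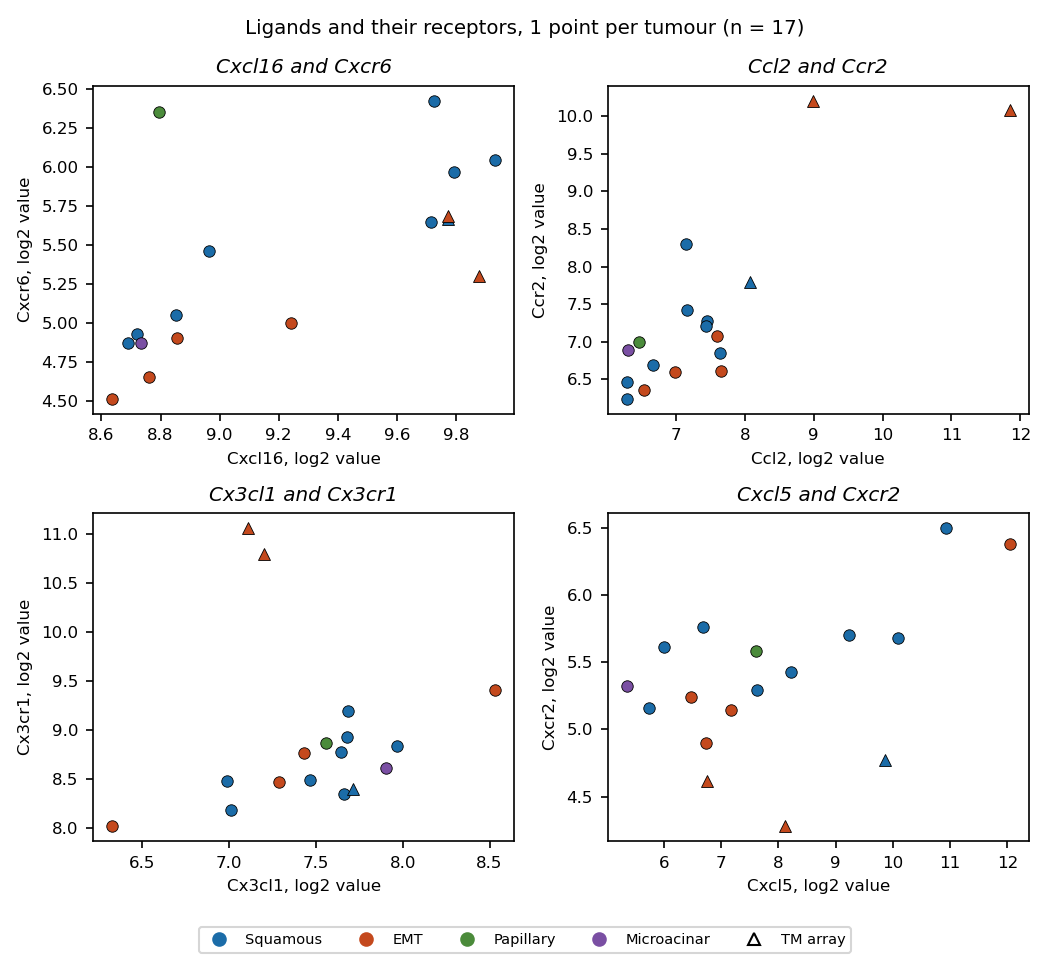
Log2 values of a ligand (horizontal) and its receptor (vertical) for 4 pairs, 1 point per tumour, coloured by histology with triangles for TM arrays. Cxcl16 and Cxcr6 rise together across most tumours (r = 0.66). EMT 5 and EMT 6 hold the highest values of both Ccl2 and Ccr2 (r = 0.83, and 0.53 without them).

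Neighbouring genes of the family moved together to different degrees over the 14 numbered arrays, as a description across arrays that share a title format. By the gene order of RefSeq (GRCm38.p6), Ccl2, Ccl7, Ccl11, Ccl12, Ccl8 and Ccl1 lie side by side, and their median pairwise r was 0.64. It was 0.59 for Ccl5, Ccl9, Ccl6, Ccl3 and Ccl4, and 0.47 for Cxcl5, Cxcl15, Cxcl1 and Cxcl2. The 7 clustered receptors from Ccr9 to Ccr2 had 0.14, and all 1176 pairs of members 0.23. Of these receptors Ccr9, Xcr1, Ccr1l1 and Ccr3 were of low signal, as were Ccl1 and Cxcl15 among the ligands. The part of low signal in these r values was not tested.

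The genes outside the family that were most like the 3 most variable ligands were taken by Pearson r over the 14 numbered arrays. For Cxcl2 these were Il1b (r = 0.95), the interleukin 1 cytokine that induces it, Nlrp3 (0.93), the inflammasome sensor that matures interleukin 1, Ifitm1 (0.91), Fpr2 (0.91), a neutrophil chemoattractant receptor, and Clec4e (0.91). For Cxcl9 they were Cd79b (0.93), a B cell receptor subunit, AW112010 (0.92), Reg1 (0.92), H2-DMa (0.92), which loads class II molecules, and Gbp8 (0.91), an interferon-induced GTPase. For Cxcl5 they were Grem1 (0.90), a BMP inhibitor, Fst (0.90), an activin inhibitor, Nfe2l2 (0.89), Il1a (0.88) and Csf3r (0.88), the neutrophil growth factor receptor, which is also in the neutrophil marker list. Over all 17 tumours r with Cxcl5 was 0.35 for Grem1, 0.74 for Nfe2l2 and between 0.85 and 0.88 for the others. With Cxcl9 it was 0.60 for Cd79b, 0.65 for H2-DMa and between 0.84 and 0.91 for the others. With Cxcl2 it ran from 0.75 for Fpr2 to 0.92 for Il1b.

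Other genes of chemokine biology passed in 0 of the 51 measured cases after adjustment in the comparison of EMT with Squamous tumours, where 0% of all genes passed. At an unadjusted p under 0.05 there were 8 of the 51, 15.7%, close to the 14.3% of all genes (8.08% higher and 6.27% lower), and they are named for their values only. Of 11 atypical receptors and chemokine-like ligands 2 were lower at that level. These were Ackr1, an atypical receptor of venules, at −0.78 (SE 0.24, adjusted p = 0.214 by limma), and Ccrl2 at −0.94 (SE 0.39, adjusted p = 0.310 by limma). Of 14 inducing cytokines 2 were lower, Tnf at −0.40 (SE 0.13, adjusted p = 0.228 by limma) and Ltb at −0.88 (SE 0.41, adjusted p = 0.348 by limma), and Il1b had the largest fold change at −1.38 (SE 0.70, adjusted p = 0.382 by limma). Of 13 NF-kB and interferon regulators 2 were lower, the NF-kB inhibitor Nfkbia at −0.47 (SE 0.15, adjusted p = 0.214 by limma) and Bcl3 at −0.53 (SE 0.21, adjusted p = 0.285 by limma). Nfkbiz had the largest fold change of that list at −0.63 (SE 0.35, adjusted p = 0.427 by limma). Of 13 signalling and trimming genes the receptor kinase Grk6 was higher at 0.27 (SE 0.08, adjusted p = 0.204 by limma) and the chemokine-trimming protease Dpp4 lower at −0.79 (SE 0.34, adjusted p = 0.316 by limma). Rgs1, a brake on receptor signalling, had the largest fold change at −1.10 (SE 0.55, adjusted p = 0.378 by limma). The median log2 fold changes of the 4 lists were 0.12, −0.07, −0.02 and 0.11, against 0.01 for all genes.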

How the data were processed

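The authors deposited 1 log2 value for each of 22690 probe sets on each of 17 arrays. That they are on a log2 scale comes from their range, and their summarising and normalization are not given in the sources used here. Labelling and hybridisation of cRNA followed Affymetrix's own procedure, per the labels' protocols. Array medians were 7.23 to 7.40 and no further normalization was applied. The supplied probe table paired 20380 probe sets with 1 gene, and 20351 of these matched RefSeq by gene identifier. EMT and Squamous tumours were compared over all genes with limma 3.58.1 (R 4.3.3), the terms being histology and title format, and Benjamini-Hochberg adjustment at 0.05. Correlations used two-sided permutation with 100000 resamples (numpy 2.4.6). The fit was also run on simulated data of independent, normally spread genes, which does not test outlying single tumours or identical TM values. The members, gene lists and pairs were chosen with earlier results of these data known. Members described in full were the 6 with the largest fold change, the 6 with the largest SD, 18 measured genes of a list of 19 and up to 3 farthest outside the range of the others in each single tumour (2 in the Papillary). Ccl4, Ccl6, Ccl7, Ccl8, Ccl9, Ccl22, Ccr1, Ccr6, Ccr10, Cx3cr1, Cxcl11, Cxcl17, Cxcr3 and Cxcr6 were chosen after their values were seen. Alternatives covered title format, normalization, probe sets, variance model, array weights and each tumour left out.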

Additional observations from a re-analysis of the deposited data

Results flagged for a closer look

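Within a histology, 9 values stood apart from the others of their group by Dixon's gap test, among 98 groups of values tested, where chance gives about 1 in 20. Cxcl5 was 12.04 in EMT 2, with the next EMT tumour at 8.11. Cxcl1 was 9.92 in EMT 2, with the next at 7.41. Ccl24 was 8.43 in EMT 5, with the next at 6.77. Ccl5 was 8.45 in Squamous 8, with the next Squamous tumour at 7.05. Cxcr3 was 7.38 in Squamous 8, with the next at 6.65. The other 4 were on Squamous 9, the only TM array of its histology: Cxcl15 was high at 6.15 with the next at 4.78, and Ccl20, Ccl22 and Ccr10 were low at 5.48, 5.55 and 5.20, with the next at 6.85, 5.94 and 5.60. Ccl20 and Ccl22 were also low on the TM arrays EMT 5 and EMT 6, and Ccr10 had the same value on all 3 TM arrays.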

How the results depend on the processing

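Over 10 alternative fits and 15 that left out 1 tumour, limma passed 0 of the 49 members, and the family's median log2 fold change stayed between −0.33 (array weights) and 0.02 (genes above the median level, which kept 11 members). Over all genes 0 passed, except without EMT 1, where 14 did (range over tumours left out 0 to 14). At an unadjusted p the members numbered 2 among numbered arrays (9.38% of all genes) or without Squamous 9 (9.61%), and 7, which is 14.3% of the family, without Squamous 1 (13.03% of all genes) or Squamous 2 (13.5%). Of the 24 members followed, 7 changed sign in some fit. Leaving out a tumour gave −0.59 to 0.24 for Cxcl1, −1.54 to 0.042 for Cxcl5, −0.038 to 0.80 for Ccl11, −0.020 to 0.26 for Ccl24, −0.40 to 0.32 for Ccr2 and −0.51 to 0.052 for Cx3cl1. Among numbered arrays Cxcl1 was 0.14, Cxcl5 0.042, Ccl24 −0.0062 and Ccr2 −0.40. With array weights Ccl11 was −0.38, Ccl24 −0.017 and Ccr2 −0.10, and without the title format term Cxcl10 was 0.055; the cause was not tested. Fitting all 17 tumours in 4 groups gave the same estimates, since single tumours add no spread.

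Among numbered arrays the ligand and receptor correlations were 0.42 for Ccl2 with Ccr2, −0.14 for Ccl20 with Ccr6, −0.066 for Ccl22 with Ccr4, 0.82 for Cx3cl1 with Cx3cr1, 0.61 for Cxcl12 with Cxcr4 and 0.79 for Cxcl5 with Cxcr2, the last 3 past the threshold. Without the 2 tumours farthest from the ligand's median they were 0.53 for Ccl2 with Ccr2, −0.24 for Ccl20 with Ccr6, 0.33 for Ccl22 with Ccr4, −0.28 for Cx3cl1 with Cx3cr1, 0.10 for Cxcl1 with Cxcr2 and −0.0092 for Cxcl10 with Cxcr3. With Squamous 7 and Squamous 8, which share a title number, averaged, Ccl22 with Ccr4 was 0.55 and Cxcl10 with Cxcr3 −0.16. After quantile normalization Ccl22 with Ccr4 was −0.17, Xcl1 with Xcr1 −0.10 and Cxcl5 with Cxcr2 0.60. Cxcl16 with Cxcr6 passed in every alternative run. The numbered-array counts of members highest in Squamous 3 and Squamous 8 (9 and 14, against 8 and 11) were added after seeing the data. No paired analysis was possible because the replicate numbers follow accession order and pair no tumours.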
